A study of Gallus gallus with 18 samples.

Results

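The FGF genes described here are 3 ligands (FGF3, FGF4 and FGF8), 3 receptors (FGFR1, FGFR2 and FGFR3) and 3 feedback genes (SPRY1, SPRY2 and DUSP6). They were taken by gene symbol from the probe annotation, which gives them 17 of the 38535 probesets of the Affymetrix chicken array. Tissue came from 18 single chicken embryos at Hamburger and Hamilton stage 4 (HH4), 9 female and 9 male, with 1 array for each embryo. HH4 is the stage at which the primitive streak, through which cells enter to form mesoderm and endoderm, is fully extended. From each embryo a square of 400 micron a side was cut at the 70% to 90% level of the streak, after 3 h in EC culture, so that all 3 germ layers were sampled together. The study used White Leghorn eggs from commercial sources, assigned sex from the signal of the W-linked gene PKCIW (HINTW) on these same arrays, and electroporated some embryos with plasmids that carried various constructs. The labels do not say which embryos these were, so their part in the spread between embryos cannot be told apart. For sexually dimorphic genes the study saw no statistical difference, within a sex, between electroporated and control embryos, and it pooled them. It reports no such check for the FGF genes.

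FGF ligands bind receptor tyrosine kinases on the cell surface, usually together with heparan sulfate, and activate the RAS and ERK kinase cascade. In the gastrulating embryo this pathway is needed for mesoderm formation and for the movement of cells away from the streak, and in the chick FGF8 and FGF4 have been described as guiding that movement. ERK signalling also switches on its own inhibitors. Sprouty proteins (SPRY1, SPRY2) act on the receptor and RAS steps, and DUSP6 is a phosphatase that removes the activating phosphates from ERK.

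The values were MAS5 signals, a background-corrected summary of the probe pairs of a probeset on a linear scale. Probes differ in affinity, so the signals of different probesets were not set against each other. A probeset was taken as detected in an embryo at a signal of 130 and was tested when at least 9 of the 18 embryos reached this level, which 14505 probesets did. Of the 17 FGF probesets 13 were tested, and they cover 8 of the 9 genes. The other 4 were the FGF4 probeset, 2 of the 5 FGFR2 probesets and 1 of the 4 FGFR3 probesets. Where a gene had several tested probesets, the brightest one stands for it below.

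The arrays of the sexes overlapped in the measures of quality taken here. The median signal of tested probesets ran from 599 to 621 in females and from 607 to 635 in males, and 13776 to 15190 probesets reached the detection level. The 3' to 5' ratio of GAPDH lay between 2.19 and 4.06. Female 9 was the lowest embryo in each of these measures, with 599.0, 13776 and 2.19. The next were 599.5 in female 7, 13866 in male 9 and 2.28 in female 6. A low 3' to 5' ratio means less loss of 5' signal, so it does not mark a poorer array. The part of these measures in the values of female 9 below was not tested. HINTW, by which sex had been assigned, had a signal of at least 25605 in every female and at most 75.1 in any male. The first principal component of the tested probesets held 17.4% of the variance (SVD of log2 signals), and female 9 and males 5, 6 and 8 had its highest scores, from 22.6 to 42.1. Male 9, at 12.3, came next. These 4 embryos touch several results below, which are therefore also given over the other 14. TBXT (Brachyury), the defining gene of the streak, had a signal between 21977 and 39141 in all embryos. MSGN1, a gene of presomitic mesoderm that was chosen after its values were seen, was lower in female 9 and male 8, with 3339 and 7118, than in the other 14, with 17674 to 27318, and was 17093 in male 5 and 21057 in male 6. As a description over 18 embryos its log2 signal had r = 0.82 with FGF3 and -0.55 with FGF8. Other tested genes of the streak and mesoderm list, described below, did not all go this way. With FGF3 and FGF8, r was 0.41 and -0.10 for TBXT, 0.41 and -0.45 for CDX2 and 0.39 and -0.11 for CDX4. It was -0.12 and 0.21 for TBX6, 0.01 and 0.09 for MESP1, -0.29 and 0.07 for SNAI2 and -0.58 and 0.43 for EOMES. Female 9 and male 8, lowest in MSGN1, were also lowest in FGF3 and highest in FGF8. These values of r were not taken over the other 14 embryos, nor set beside the share of all probesets. The part of MSGN1 in the results of FGF3 and FGF8 was not tested.

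FGF8 was the most uneven ligand. Its signal was 72.7 at the lowest, 307 at the median and 1191 at the highest in females, and 91.4, 154 and 1657 in males. The lowest embryo was female 2 and the highest male 8. In 8 females and 7 males FGF8 reached the detection level, and the other 3 embryos lay under it, so no fold is given between the ends of the range. Male 8 and female 9 were well above the rest, males 5 and 3 followed with 757 and 643, and the remaining values ran down without a clear gap. The 2 sexes overlapped over nearly the whole range. FGF8 is placed on chromosome 6.

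FGF3 was detected in all 18 embryos by both of its probesets. With the brighter one its signal ran from 1157 over a median of 2869 to 4398 in females, and from 891 over 3697 to 5057 in males. Here the same pair of embryos that was highest for FGF8 was lowest: female 9 had 1157 and male 8 had 891, whereas no other embryo was below 2332. The second probeset gave 732 in female 9 and 1495 in male 8, both below the 2057 of the next embryo. The probesets of FGF3 followed each other with a Pearson r of 0.83 over the 18 embryos.

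FGF4, which lies beside FGF3 on chromosome 5, was near the limit of detection. Its single probeset ran from 35.3 over 102 to 202 in females and from 26.8 over 94.7 to 261 in males. It reached the detection level in 4 females and 2 males, was not tested and entered no correlation.

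The 3 receptors were detected in all embryos. FGFR1 had signals from 980 to 1745 in females (median 1721) and from 1414 to 1969 in males (median 1718). FGFR2 ran from 2437 over 3227 to 4809 in females and from 2815 over 3095 to 4572 in males. Its second brightest probeset ran from 1914 to 3710 and the dimmest tested one from 201 to 499, and the 2 untested ones each reached the detection level in 2 embryos. The 3 tested probesets had r between 0.59 and 0.86 with each other. The ranges of the sexes overlapped widely for both receptors. Their lowest embryos were female 2 for FGFR1 and female 6 for FGFR2.

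FGFR3 was less even. Its brightest probeset ran from 1121 over 2667 to 2994 in females and from 1519 over 2425 to 4183 in males. In females 8 of 9 embryos lay between 2413 and 2994, and female 9 alone was far below them. The 4 embryos with the highest first component had the 4 lowest values, between 1121 and 1726, and the other 14 had at least 2183. The 3 tested probesets of FGFR3 had r between 0.79 and 0.93 with each other, and female 9 was lowest in all 3. The second brightest ran from 301 to 1525 and the dimmest tested one from 276 to 811, and in the latter the 4 embryos did not all lie below the rest. The untested probeset was under the detection level in every embryo.

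Among the feedback genes SPRY2 had signals from 3549 over 5905 to 9740 in females and from 3811 over 5964 to 9051 in males. Female 6 was highest, with 9740, followed by male 8, female 9 and male 5 with 9051, 9018 and 8081. SPRY1 ran from 192 over 243 to 456 in females and from 145 over 290 to 634 in males, again with male 8 and female 9 at the top. DUSP6 ran from 856 over 1527 to 2000 in females and from 702 over 1279 to 1593 in males. Its highest embryo was female 1 and its lowest male 4, and neither female 9, at 1846, nor male 8, at 1220, stood apart.

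**Figure D1:**
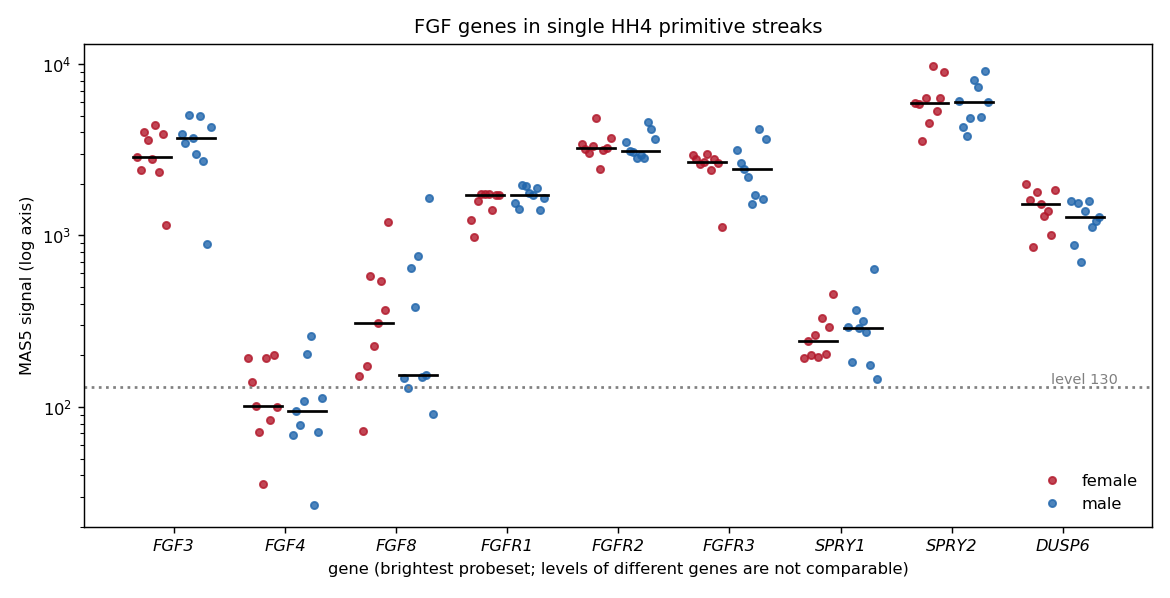
MAS5 signal (log axis) of the brightest probeset of each FGF gene in 9 female and 9 male embryos, with the median of each sex as a bar and the detection level of 130 as a dotted line. FGF8 runs from under the detection level to 1657, FGF4 lies mostly under the detection level, and FGFR1 and FGFR2 stay within a narrow band.

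The spread between embryos was then measured as the SD of log2 signal within a sex, pooled over both, and set beside tested probesets whose mean log2 signal was within 0.5 of the gene's own. With 1 array for each embryo, biological and technical spread cannot be told apart. FGF8 had an SD of 1.33, where the median of 2963 probesets of like level was 0.35, and 99.7% of them had a lower SD. The 3 embryos under the detection level are part of this value. FGF3 followed with 0.68 (median of like level 0.21, 97.7% lower) and SPRY2 with 0.44 (0.18, 95.7% lower). FGFR3 had 0.48 and exceeded 93.2% of its neighbours in level, DUSP6 had 0.41 and exceeded 87.1%, and SPRY1 had 0.54 and exceeded 84.5%. FGFR2, at 0.26, and FGFR1, at 0.24, exceeded only 71.7% and 53.2%. By their brightest probesets, all tested members but FGFR1 thus varied more than at least 71.7% of the probesets of their level, and FGFR1 was close to the middle.

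For FGF3 and FGFR3 the spread was much smaller without the 4 embryos of high first component scores, with an SD of 0.33 and 0.25. It was still 1.04 for FGF8, 0.41 for SPRY1, 0.36 for SPRY2 and 0.43 for DUSP6.

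**Figure D2:**
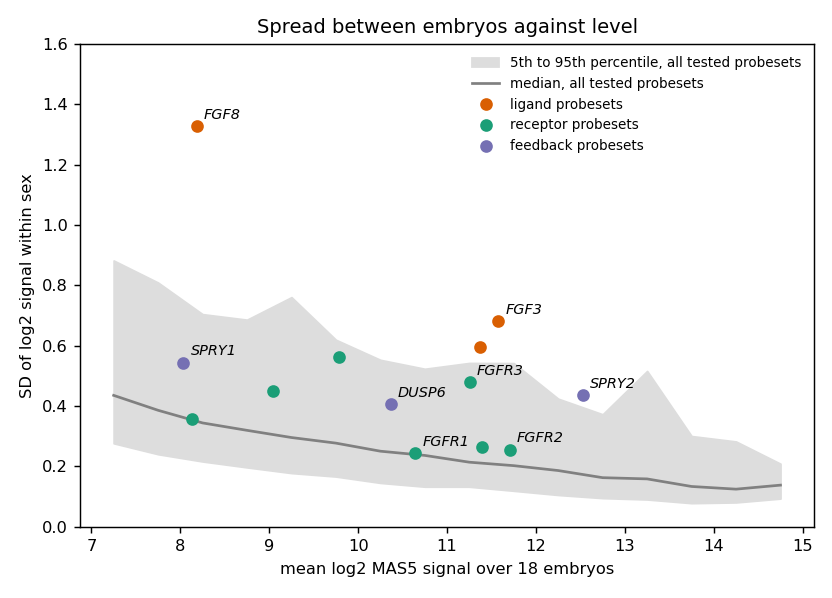
SD of log2 signal within sex against mean log2 signal over 18 embryos for the 13 tested FGF probesets, coloured by role, with the median (line) and the 5th to 95th percentile (band) of all tested probesets in steps of 0.5. FGF8, at 1.33, lies far above the band, and FGFR1, at 0.24, lies close to the median line.

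No FGF probeset was called between the sexes. In limma, with Benjamini-Hochberg adjustment over all 14505 tested probesets, 0 of the 13 FGF probesets passed an adjusted p of 0.05, against 2.76% of all tested probesets. None of the 13 had an unadjusted p under 0.05 either, against 8.57% of all tested probesets, and a SAM-type test (a permutation-based test) also called 0. All 9 genes are autosomal in the GRCg7b annotation, on chromosomes 1 (SPRY2 and DUSP6), 4 (FGFR3 and SPRY1), 5 (FGF3 and FGF4), 6 (FGF8 and FGFR2) and 22 (FGFR1). The shares of all tested probesets called between the sexes, here and below, include Z and W genes. The study placed most of its male-biased probesets on Z. A share over autosomal probesets alone was not taken. The median log2 difference, male minus female, was 0.02 over the 13 and -0.01 over all tested probesets.

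The size of a difference that could be missed varied with the gene. DUSP6 had the largest difference among the brightest probesets, with 1482 ± 382 in females and 1257 ± 315 in males (SD, n = 9 each), a log2 difference of -0.24 (95% interval -0.62 to 0.15, limma adjusted p = 0.836). FGFR1 had 0.16 (-0.09 to 0.40, limma adjusted p = 0.826). FGFR2 had 0.02 with an interval from -0.23 to 0.28. For FGF8 the difference was -0.07 and its interval ran from -1.28 to 1.15 (limma adjusted p = 0.993), so that even a doubling in either sex was within it. The other brightest probesets had differences of 0.18 for FGF3, -0.02 for FGFR3, 0.10 for SPRY1 and -0.05 for SPRY2. Single embryos moved several of these values without a call: that of FGF3 was 0.014 without female 9 and 0.41 without male 8, that of DUSP6 was -0.14 without male 4 and -0.33 without female 3, and that of FGFR1 was 0.08 without female 2.

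**Figure D3:**
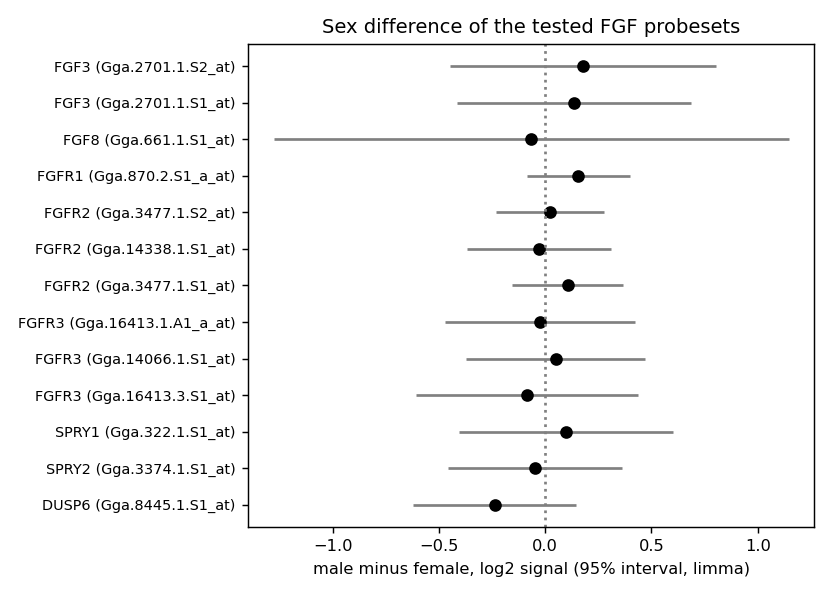
Male minus female difference in log2 signal (points) with its 95% interval from limma (lines) for the 13 tested FGF probesets, 9 embryos of each sex. Every interval includes 0, and that of FGF8, from -1.28 to 1.15, is the widest.

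Whether the ligands varied with the feedback genes was asked over the 18 embryos, with log2 signals of the brightest probesets, in 6 pairs (FGF3 and FGF8 against SPRY1, SPRY2 and DUSP6). P-values are 2-sided and from 100000 permutations, and those called adjusted are adjusted over the 6 pairs. Those after leaving out the 2 farthest embryos are not adjusted, here and below. Embryos share an amplification and array procedure as well as a dissection, and a whole-tissue signal cannot tell fewer cells of a type from less RNA in each cell.

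FGF8 and SPRY1 tended to be high in the same embryos. The pair had a Pearson r of 0.78 (permutation p = 1.0e-04, adjusted 6.0e-04) and a Spearman rho of 0.71 (permutation p = 0.00134, adjusted 0.00804). Of the 14504 probesets compared, 0.0207%, which is 3 with SPRY1 itself among them, had an r with FGF8 at least that high. The embryos lowest in SPRY1, male 9 with 145 and male 7 with 176, had FGF8 signals of 91.4 and 154, and the embryos highest in SPRY1, female 9 and male 8, were also the highest in FGF8. Female 2, lowest in FGF8, had a SPRY1 signal of 243 and did not fall in this order.

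The relation had a smaller r without its extreme embryos. Leaving out female 9 and male 8, the 2 farthest from the median of FGF8, gave r = 0.59 (unadjusted permutation p = 0.0170, n = 16). No adjusted value was taken there, so this does not show that the call was kept. Over the 14 embryos without the 4 of high first component, r was also 0.59. The permutation p was 0.0275 unadjusted and 0.165 adjusted, so the call was lost. Within males r was 0.89 (exact permutation p = 4.1e-04, adjusted 0.00246) and within females 0.61 (exact permutation p = 0.0839, adjusted 0.360). The difference between the sexes was not tested. After the first component was removed from all genes, r was 0.75 (adjusted permutation p = 0.00114).

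With the other feedback genes FGF8 had no called relation. With SPRY2 r was 0.41 (adjusted permutation p = 0.142; rho 0.33), and 5.52% of probesets had an r at least that high. Without the 4 embryos it was -0.01. With DUSP6 r was 0.09 (adjusted permutation p = 0.734; rho 0.01), which 33.8% of probesets reached or exceeded. Female 1 and female 9, for example, had the highest DUSP6 signals, 2000 and 1846, at FGF8 signals of 151 and 1191.

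FGF3 had negative r with all 3 feedback genes, none past the test. The values were -0.49 with SPRY1 (adjusted permutation p = 0.124; rho 0.02), -0.42 with SPRY2 (0.142; rho -0.12) and -0.18 with DUSP6 (0.569; rho -0.16). For comparison, 4.66%, 7.46% and 23.9% of probesets had an r with FGF3 at least as low. Those of SPRY1 and SPRY2 rested on female 9 and male 8, since without these embryos r was 0.40 (permutation p = 0.118) and 0.07 (permutation p = 0.791). Single embryos moved these values across the threshold: without male 3 r with SPRY1 was -0.59 (adjusted permutation p = 0.0400), and without female 6 r with SPRY2 was -0.57 (adjusted permutation p = 0.0469).

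**Figure D4:**
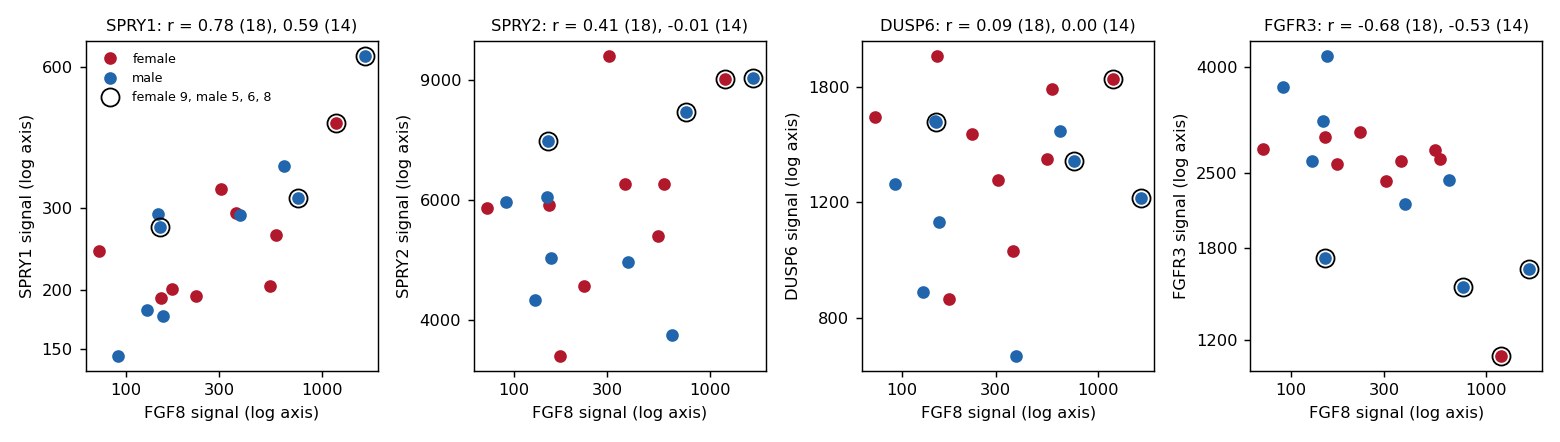
Signals of SPRY1, SPRY2, DUSP6 and FGFR3 against FGF8 in the 18 embryos (both axes log), with females and males in different colours and female 9 and males 5, 6 and 8 ringed. Panel titles give Pearson r over 18 embryos and over the 14 not ringed; SPRY1 climbs with FGF8 (0.78 and 0.59), DUSP6 shows no trend, and FGFR3 falls away at high FGF8 (-0.68 and -0.53).

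Among the feedback genes 1 of 3 pairs was called. SPRY1 and SPRY2 had r = 0.58 (permutation p = 0.0127, adjusted over 3 pairs 0.0382; rho 0.56, adjusted 0.0518), and 1.23% of probesets had an r with SPRY1 at least that high. Leaving out male 9 and male 8, the 2 farthest in SPRY1, left r at 0.56 (unadjusted permutation p = 0.0254). The call was not firm, since it was lost on leaving out any one of females 3, 5, 6 and 9 or males 2, 5, 7 and 8, with r between 0.48 and 0.57, and over the 14 embryos r was 0.24. After the first component was removed it was 0.32 (adjusted permutation p = 0.292). DUSP6 had r = 0.14 with SPRY1 and 0.38 with SPRY2 (adjusted permutation p = 0.571 and 0.176), which 25.5% and 10.3% of probesets reached or exceeded. DUSP6 also had an r of -0.67 with the median signal of an array, and the part of this in its results was not tested. SPRY2 had an r of 0.75 with the first component. With that component removed, its r with FGF8 went from 0.41 to 0.26.

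Of 9 receptor and feedback pairs 1 passed the test. FGFR3 and SPRY1 had r = -0.76 (permutation p = 4.2e-04, adjusted 0.00378) and rho = -0.76 (adjusted permutation p = 0.00369), and 0.241% of probesets had an r with FGFR3 that low. The highest FGFR3 signals, 4183 in male 7 and 3651 in male 9, went with SPRY1 signals of 176 and 145, the lowest of all, and female 9, lowest in FGFR3, was second highest in SPRY1. Leaving out female 9 and male 5 gave r = -0.75 (unadjusted permutation p = 8.3e-04). The call was lost over the 14 embryos, with r = -0.66 (adjusted permutation p = 0.0695), and with the second brightest FGFR3 probeset, with r = -0.62 (adjusted permutation p = 0.0679). With the dimmest tested FGFR3 probeset it was kept, with r = -0.79 (adjusted permutation p = 9.0e-04). It was -0.85 within females (exact permutation p = 0.00105, adjusted 0.00947) and -0.72 within males (exact permutation p = 0.0280, adjusted 0.252).

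The second value in this family was FGFR3 with SPRY2, at r = -0.56 (adjusted permutation p = 0.0696), an r that 2.43% of probesets had or went below, and it was 0.02 over the 14 embryos. Leaving out any one of females 3 and 6 or males 3 and 9 brought this pair past the threshold, with r between -0.61 and -0.59, and the dimmest tested FGFR3 probeset gave -0.68 (adjusted permutation p = 0.00882). The other 7 pairs did not pass and had r between -0.25 and 0.19. For FGFR1 the share of probesets at least as far in the same direction was 33% at SPRY1, 43.7% at SPRY2 and 18.9% at DUSP6. For FGFR2 it was 35.6%, 34.9% and 18.9%, and for FGFR3 with DUSP6 it was 29.1%. The dimmest tested FGFR2 probeset differed over the 18 embryos, with r = -0.66 against SPRY1 (adjusted permutation p = 0.0116), where the brightest gave -0.10. Over the 14 embryos the brightest gave -0.55 (adjusted permutation p = 0.177), and the dimmest was not run there. FGFR3 itself had an r of -0.69 with the first component, and after that component was removed its r with SPRY1 was -0.64 (adjusted permutation p = 0.0385) and with SPRY2 -0.09.

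Ligands were also set against each other and against the receptors, in 7 pairs chosen after the signals had been seen. FGF8 and FGFR3 had r = -0.68 (permutation p = 0.00179, adjusted 0.0125; rho -0.66, adjusted 0.0302), an r that 0.283% of probesets matched or passed. Leaving out female 9 and male 8 gave r = -0.48 (permutation p = 0.0586). The call was also lost without female 9 alone (r = -0.60, adjusted permutation p = 0.0728), over the 14 embryos (r = -0.53, 0.114) and with the second brightest FGFR3 probeset (r = -0.60, 0.0528). The dimmest tested one gave -0.76 (adjusted permutation p = 0.00161). FGF8 with FGF3 had r = -0.53 (adjusted permutation p = 0.0690; rho -0.27), with 2.01% of probesets as low, and 0.07 without female 9 and male 8. It passed the threshold without female 2, at -0.63 (adjusted permutation p = 0.0167), or without male 3, at -0.63 (0.0203). FGF3 with FGFR2 had r = -0.51 (adjusted permutation p = 0.0690; 3.86% of probesets as low), and with the dimmest tested FGFR2 probeset r was 0.13. After the first component was removed this pair passed, with r = -0.59 (adjusted permutation p = 0.0354). The other 4 pairs did not pass. FGF3 had 0.32 with FGFR1 and 0.46 with FGFR3, which 19.8% and 8.52% of probesets reached, and FGF8 had 0.37 with FGFR1 and 0.04 with FGFR2, which 7% and 40.7% reached. Over the 14 embryos r with FGFR1 was higher, at 0.58 for FGF3 and 0.58 for FGF8 (adjusted permutation p = 0.0950 for each), and was not called. With the second FGF3 probeset its relation to FGFR3 did pass, with r from 0.63 to 0.68 over 3 FGFR3 probesets. With the brightest probesets of FGF3 and FGFR3, however, rho was -0.02. Their r was -0.27 without female 9 and male 8 and -0.32 over the 14 embryos. Leaving out embryos was not run with the second FGF3 probeset.

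**Figure D5:**
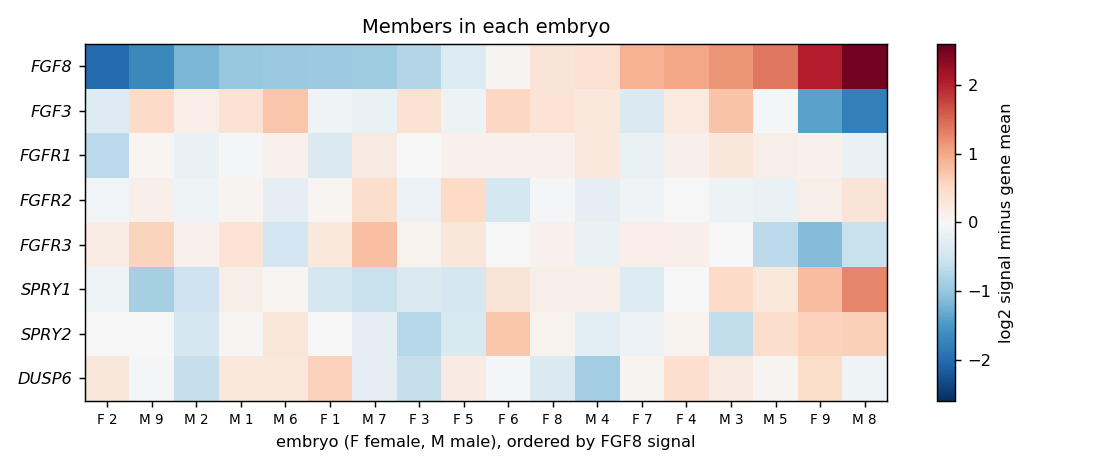
Log2 signal minus the gene's mean over 18 embryos (colour) for the 8 tested FGF genes, with embryos ordered from left to right by FGF8. SPRY1 tends to be higher and FGFR3 lower toward the right, and the lowest FGF3 values are those of female 9 and male 8, at 1157 and 891.

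The genes most like each member over the 18 embryos, by Pearson r of log2 signals with the mean of each sex removed, are given as a description, picked as the 3 highest of the 11636 tested probesets that read 1 gene. For FGF8 these were WBSCR17 (r = 0.80), TBL1XR1 (0.79), a part of a transcriptional corepressor complex, and FAM214A (0.78). SPRY1 was nearest to DACT2 (0.83), a modulator of Wnt and Nodal signalling, REEP3 (0.83) and ACBD3 (0.83). The highest signals of DACT2, REEP3 and ACBD3 were 4833, 5811 and 11375, against medians of 519, 1551 and 3241. For these genes, and for those nearest to every other member, r was not taken over fewer embryos. SPRY2 was nearest to MPZL2 (0.91), a cell adhesion protein, to the ligand gene FGF18 (0.89) and to CIZ1 (0.89).

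FGFR3 was nearest to GTDC1 (0.91), to CDH11 (0.89), a cadherin of mesenchymal cells, and to PAPPA (0.88), a protease of the insulin-like growth factor system. FGF3 was nearest to DGKQ (0.90), a diacylglycerol kinase, MORF4L2 (0.88) and the chemokine gene CXCL14 (0.87). FGFR1 had ZNF821, another probeset of DGKQ and PEX10 at 0.82 each. DUSP6 had DNAJA3 and MED12 at 0.79 and ZFAND1 at 0.78, and FGFR2 had CHAC1 (0.76), NEMF (0.72) and STMN2 (0.69). CXCL14 ran from 664 over a median of 6749 to 8868, CDH11 from 295 over 1289 to 2379 and CHAC1 from 53.9 over 144 to 3130.

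Other genes of the pathway were taken from a list of 78 symbols chosen from general knowledge, 68 of which matched a probeset and 39 of which were tested. Of these 1 was higher in males and 0 in females, against 2.48% and 0.283% of all tested probesets, and their median log2 difference was -0.11. The gene was RASA1, a negative regulator of RAS that lies on Z, with 2448 to 3812 in females and 3840 to 5246 in males, so the sexes did not overlap (log2 difference 0.63, SE 0.09, limma adjusted p = 1.7e-04).

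Of 15 other ligand genes 3 were tested and 10 were under the detection level in every embryo, among them FGF2 and the Z-linked FGF10. FGF18 ran from 448 to 5654 with a median of 1657. Males 5 and 8 had 5341 and 5654, above the other 14 embryos, which reached at most 4380. Female 9, at 4221, and male 6, at 2753, lay within the range of the other 14. FGF19, the neighbour of FGF4 and FGF3, ran from 2886 to 7564. FGF13, whose product acts inside the cell and not as a secreted ligand, ran from 3041 to 6060. FGFR4 was under the detection level in every embryo, with at most 93.7.

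In the list of feedback genes and ETS targets 11 of 17 were tested and 0 called between the sexes, against 2.76% of all tested probesets. ETV5, an ETS factor that FGF signalling switches on, ran from 1217 over 2270 to 4128 in females and from 1381 over 1522 to 1733 in males, so that the male range lay within the female one (log2 difference -0.63, SE 0.19, limma adjusted p = 0.112). Its relative ETV4 ran from 215 to 738 over both sexes, and the 4 embryos of high first component had 215 to 270. SPRED1 ran from 1183 to 2632 and IL17RD, an inhibitor of FGF receptor signalling, from 1030 to 2141. SPRY4 reached the detection level in 1 embryo. As a description over 18 embryos, the mean of SPRY1, SPRY2 and DUSP6 had r = 0.67 with FGF18, 0.41 with ETV5 and -0.54 with ETV4. Of genes chosen after their values were seen, the phosphatase genes DUSP5, DUSP4 and DUSP1 had 0.61, 0.60 and -0.60, and SULF1, an enzyme that edits heparan sulfate, had -0.78. The remaining tested genes of the feedback and ETS list had 0.26 (SPRED1), 0.07 (IL17RD), -0.25 (CHURC1), -0.30 (FLRT3), -0.45 (ETS1) and -0.47 (ETV1). The list thus had no common direction. These values of r were not taken over the other 14 embryos, nor set beside the share of all probesets. SULF1 was 587, 660 and 974 in female 9, male 5 and male 8, against at least 2238 in the other 14. In male 6 it was 2812. DUSP5 had 12334 to 15275 in the 4 embryos, against at most 12970 in the other 14.

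Markers of the tissues that the square can hold are given as summed signals, with their r against FGF8 on the linear scale over 18 embryos, as a description. Such a sum is weighted toward its brightest probesets and does not stand for every gene of its list. In the endoderm and hypoblast list SOX17 ran from 8506 to 22706, and its log2 signal had r = 0.18 with FGF8. Untested CER1 of that list ran from 6.31 to 7707. In the streak and mesoderm list TBXT and MSGN1 were brightest, with 21977 to 39141 and 3339 to 27318. The endoderm and hypoblast list (7 of 7 genes on the array, 4 tested, 2 under the detection level in every embryo) had a summed signal from 9493 to 33251 in females and 17337 to 39901 in males, with r = 0.79. The node list (7 of 7, 4 tested, SHH under the level in every embryo) had 1088 to 9632 and 1486 to 9015, with r = 0.69. The streak and mesoderm list (9 of 11, 8 tested) had 36152 to 72946 and 51765 to 83930, with r = -0.43. The epiblast and early neural list (4 of 7, 3 tested) had 3428 to 6945 and 3935 to 7089, with r = 0.49, and the extraembryonic and blood list (6 of 6, 3 tested, GATA2 and 2 globin genes under the level in every embryo) had 548 to 1151 and 553 to 939, with r = -0.19. These values of r rested on the 4 embryos, since over the other 14, an alternative chosen after seeing the data, they had the opposite sign in all 5 lists: -0.31, -0.30, 0.70, -0.44 and 0.08 in the same order. For the log2 signals of single tested markers the median r with FGF8 was 0.31 in the endoderm list, 0.26 in the node list, -0.01 in the streak list, 0.02 in the epiblast list and 0.01 in the blood list. The part of tissue makeup in the relations of the FGF genes was not tested.

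Single markers gave the following values in the 4 embryos. HHEX, a gene of anterior endoderm, had 5089 in female 9, 5611 in male 8 and 1728 in male 5, where the other 14 embryos had at most 1060. OTX2, an anterior neural and endoderm gene, had 3880, 4764 and 2232 in the same embryos, against at most 1694. EOMES had 656, 807 and 573, against at most 500, and the node gene CHRD had 4087, 3119 and 3256, within the range of the other 14, which reached 5019. NOTO, a node gene chosen after its values were seen, had 1000, 787 and 311, against at most 434 in the other 14. Its signal in male 6 was 117. Over 18 embryos the log2 signal of NOTO had r = 0.67 with FGF8. The other tested node genes had 0.42 (FOXA2), 0.09 (CHRD) and -0.13 (NOG). These values of r were not taken over the other 14 embryos, nor set beside the share of all probesets. Male 6, in which FGF8 was 149, had 573 for HHEX and 722 for OTX2, both within the range of the 14. SOX3 lay between 1212 and 1484 in the 4 embryos and between 1332 and 3925 in the others, and LMO2 between 23.5 and 115 against 113 to 486. SOX2 was not tested, since it reached the detection level in 8 embryos only, and it was under that level in all 4.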

How the data were processed

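The authors dissected, amplified (2 cycles) and hybridized RNA of each embryo to 1 Affymetrix chicken GeneChip. The deposited values are MAS5 signals, an intensity on a linear scale after scaling of each array by the authors (MAS5 and affy in the submitters' processing notes), with no filter on Present calls; tool versions are not given in the sources used here. The number of arrays limits the precision. All signals were above 0 and were taken to the log2 scale as they stood, without the 96 control probesets. The detection level of 130, in at least 9 embryos, stands in for Present calls. Of 14505 tested probesets 11636 read 1 gene, 68 several and 2801 none, by the platform annotation with symbols updated through Entrez numbers to RefSeq (GRCg7b). Sex was tested with limma 3.58.1 in R 4.3.3 (1 coefficient, 2-sided, Benjamini-Hochberg over all tested probesets). Correlations used numpy 2.4.6 with 100000 permutations, or all orders within a sex. Tests were tried on simulated data.

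The members and lists were chosen with earlier results of these data known. Named genes were the members, pathway genes called, on Z or listed by name, the 3 most alike genes and, from each marker list, the 1 nearest to the feedback genes, with TBXT, SOX2, OTX2 and CHRD. Alternatives were detection levels of 100 and 200, no filter, log2(signal + 32), quantile normalization, a SAM-type test with 100 permutations at a 5% FDR, array weights, a replicate block, other probesets, removal of the first component, each sex alone, and leaving out 4 embryos or each in turn.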

Additional observations from a re-analysis of the deposited data

Results flagged for a closer look

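Gaps at the end of a group of 9 embryos were taken as a share of the range of log2 signals. They were compared with Dixon's 95% critical value over the 26 groups of 13 probesets and 2 sexes. Signals in brackets below are on the linear scale, on which gaps were not compared. Chance flags about 1 in 20 groups of normally distributed values, and 5 groups were past the value. The share of groups flagged over all tested probesets was not taken, so the 5 are not read as a trait of the FGF genes. Each was a low value of a single embryo, and the groups share embryos and genes. Female 9 was low for both FGF3 probesets, with a gap of 0.581 of the range for the dimmer (732, next 2057) and 0.525 for the brighter (1157, next 2332). Male 8 was low for the brighter FGF3 probeset, with a gap of 0.640 (891, next 2708). Female 9 was low for 2 FGFR3 probesets, with a gap of 0.810 (301, next 913) and 0.780 (1121, next 2413).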

How the results depend on the processing

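Depth cannot be given for arrays. FGF4 and, in 3 embryos, FGF8 lay under the detection level, where signal over background limits what can be seen. The number of FGF probesets called between the sexes was 0 under each alternative run, while the count over all tested probesets, 401, lay between 319 (no filter) and 407 (array weights), and between 371 and 400 on leaving out 1 embryo. With a replicate block it was 358, and 0 FGF probesets were called. The labels give both sexes the numbers 1 to 9, but same-numbered embryos had correlations of their deviations between -0.24 and 0.21, and 1 of 9 pairs matched best with its own number, so the numbers were not taken as pairs. Under quantile normalization the SDs of the members ran from 0.24 for FGFR1 to 1.32 for FGF8.

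Leaving out 1 embryo changed the sign of the sex difference of 5 genes, none of them called: FGF8 ran from -0.38 to 0.18, FGFR2 from -0.034 to 0.089, FGFR3 from -0.17 to 0.060, SPRY1 from -0.057 to 0.21 and SPRY2 from -0.14 to 0.038. Without the 4 embryos it was 0.12 for FGFR3 and -0.040 for SPRY1. The cause of these and the following changes was not tested.

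Of the alternatives run for r, leaving out the 4 embryos turned the most signs. Other sets of 4 embryos were not left out, so the effect of fewer embryos alone cannot be told apart. Without female 9 and males 5, 6 and 8, FGF8 with SPRY1 fell to 0.59 and was no longer called, nor was it within females, at 0.61. Signs turned without them for FGF3 with SPRY1 (0.46), SPRY2 (0.032) and FGFR3 (-0.32), for FGF8 with SPRY2 (-0.0060), DUSP6 (-0.00095), FGF3 (0.25) and FGFR2 (-0.28), and for FGFR3 with SPRY2 (0.019) and DUSP6 (0.26). Within males signs turned for FGF3 with DUSP6 (0.16), FGFR1 with SPRY1 (-0.13) and FGFR2 with SPRY2 (0.16), and within females for FGFR1 with SPRY2 (0.19). Other probesets turned FGF3 with FGFR2 (0.28, 0.030 and 0.13) and FGF8 with FGFR2 (-0.33).

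Leaving out 1 embryo gave r from 0.69 to 0.83 for FGF8 with SPRY1, called each time. It gave -0.59 to -0.16 for FGF3 with SPRY1, -0.57 to -0.26 for FGF3 with SPRY2, -0.033 to 0.17 for FGF8 with DUSP6, -0.10 to 0.078 for FGFR1 with SPRY2, -0.40 to 0.022 for FGFR2 with SPRY1, -0.26 to 0.10 for FGFR2 with SPRY2, -0.22 to 0.052 for FGFR3 with DUSP6 and -0.15 to 0.13 for FGF8 with FGFR2.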
